A study of Homo sapiens with 9 samples.

Results

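The genes described here make up the machinery that carries proteins into the endoplasmic reticulum (ER) and the machinery that removes misfolded ones from it. They are a list of 41 genes of ER-associated degradation (ERAD), the translocon and signal peptide processing, matched by symbol among the 61544 genes counted. The rule itself uses no measured value, but the list was chosen with earlier results of these data known. All 41 were abundant enough to be tested, among 18653 tested genes. Secretory and membrane proteins are directed to the ER membrane by their signal peptide, pass through the Sec61 channel and lose the peptide to signal peptidase. Glycoproteins that fail to fold are trimmed and recognised by lectins, passed back across the membrane by ubiquitin ligases such as the pair of SYVN1 and SEL1L, pulled out by the ATPase VCP and degraded by the proteasome. Many of these genes are induced in ER stress by the unfolded protein response (UPR), which the ER chaperone GRP78, encoded by HSPA5, restrains by binding its sensors.

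RNA-Seq was done on bulk cultures of H1975 cells, a human lung adenocarcinoma line, to learn how GRP78 in the nucleus affects transcription. Every group received si78, an siRNA to the untranslated end of the endogenous GRP78 transcript, for 24 h, and then a plasmid for 48 h. The plasmid was empty pcDNA3 in the vector group, FLAG-tagged wild-type GRP78, F-78(WT), in the group called WT and the same protein with a mutated nuclear localization signal in the group called NLS Mut, with 3 libraries in each. The 3 groups are thus cells depleted of endogenous GRP78 that differ in what was put back, and no cells without si78 are analysed here. The sources do not say that the libraries of a group came from separate cultures, so p-values measure the spread between these libraries, which may be technical.

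The libraries held 17671055 to 27476298 counted reads, and values are given as CPM (counts scaled to the library size, normalised by TMM). HSPA5, which was transfected, had 358.5, 383.4 and 391.2 CPM in the vector libraries, 5031, 5814 and 6145 CPM with WT and 4962, 5156 and 4765 CPM with NLS Mut, in the direction that the labels give. The defining markers fit an epithelial line, with all 6 epithelial markers at 1 CPM or more, whereas of the leukocyte markers CD3E and CD68 were at 0 in every library, and DCN, a fibroblast marker, was at 0 as well. Of the 4 markers of the lung adenocarcinoma lineage, NKX2-1, its defining transcription factor, had group means of 28.6, 29.9 and 23.3 CPM with vector, WT and NLS Mut, NAPSA had 1.83 to 2.42 CPM, and the surfactant genes SFTPB and SFTPC were below 1 CPM. The vector libraries differed among themselves in how counts moved with the GC content of genes. Over all tested genes, the log2 deviation from the mean library changed for each 10 points of GC content by −0.04 in vector replicate 1, by 0.09 and 0.10 in vector replicates 2 and 3, and by −0.07 to 0.03 in the libraries with GRP78. Results against vector are therefore also given without each vector library, and the part of GC content in them was not tested beyond the correction given with the GC values.

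Letters of the promoter elements that UPR transcription factors bind were looked for in 36 of the 41 genes, those with an entry in a table of RefSeq promoters (GRCh38.p14), from 250 bases before to 50 bases after the gene start and on both strands. A gene was counted when any of its promoters held the letters. ERSE, the ER stress response element bound by ATF6 and XBP1 (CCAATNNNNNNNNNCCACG), was found in CRELD2 alone of the 36, or 2.78%, and in 0.0916% of the 27305 genes with an entry. ERSE-II (ATTGGNCCACG) was found in HERPUD1 alone, and in 0.0696% of all genes with an entry. The UPRE core (TGACGTG), which XBP1 binds, was found in 7 genes of the set, SEC61A1, SEC62, SSR3, SSR4, UBE2J1, UBXN4 and VCP, or 19.4%, against 2.40% of all genes with an entry. The core of the C/EBP-ATF element (TGATGNAA), which ATF4 and CHOP bind, was found in HERPUD1 and SRPRB, or 5.56%, against 4.46% of all genes with an entry. Matches of letters are descriptions and not evidence of binding. Whether the elements bear on the changes described below was not tested. Windows are printed for CRELD2 and HERPUD1, the members that hold ERSE or ERSE-II. Of the 7 genes with the UPRE core, windows are printed for SEC62 and SSR4 only, which have the largest absolute log2 fold change of their roles. The windows read 5′ to 3′ on the strand of the match, with the fixed letters of the element in capitals.
CRELD2, ERSE on the opposite strand of the gene, chr22:49918551-49918575: ggcCCAATccgagttcgCCACGaga
HERPUD1, ERSE-II on the strand of the gene, chr16:56932022-56932038: ccgATTGGgCCACGttg
HERPUD1, C/EBP-ATF core on the opposite strand, chr16:56931963-56931976: ggcTGATGcAAccc
SEC62, UPRE core on the opposite strand, chr3:169966788-169966800: ctcTGACGTGgag
SSR4, UPRE core on the opposite strand, chrX:153794537-153794549: cacTGACGTGgcc

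Of the 41 genes, edgeR's quasi-likelihood test called 1 lower in each comparison with vector, beside 0.343% of all tested genes with WT and 0.499% with NLS Mut. HERPUD1, a membrane component of the SYVN1 ligase, was called 16.9% lower with WT. CRELD2, a luminal protein induced by ER stress, was called 21.5% lower with NLS Mut. Both genes were lower in both comparisons, HERPUD1 by 12.1% with NLS Mut and CRELD2 by 17.9% with WT, values that were not called. Neither gene was called between the forms, and each call was lost without vector replicate 2 or vector replicate 3. No member was called higher. The 95% interval of the log2 fold change lay within ±0.5, a 1.41-fold change, for 40 of the 41 genes with WT, for 39 with NLS Mut and for 40 between the GRP78 forms, with DERL3 outside in all 3 comparisons and CRELD2 outside in the comparison of NLS Mut with vector. This band is wider than both called changes, −0.27 and −0.35 on the log2 scale. The share of all tested genes within it was not computed. With WT against vector, the median standard error was 0.072 for the members and 0.141 over all tested genes.

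With WT against vector, edgeR's quasi-likelihood test with Benjamini-Hochberg adjustment over all genes called 0 of the 41 members higher and 1 lower, where 0.214% of all tested genes were called higher and 0.343% lower. At an unadjusted p under 0.05, 0 were higher and 9 lower, beside 5.19% and 6.52% of all tested genes. DESeq2 called 0 higher and 2 lower (HERPUD1 and CRELD2), beside 1.22% and 1.09% of the genes it gave an adjusted p. Of the 41 fold changes 29 were below 0, or 70.7%, beside 50.5% of all tested genes. The median log2 fold change was −0.08 beside −0.0023 over all tested genes. The 3 libraries of the groups did not overlap for 10 members. SEC11A was higher, where 6.53% of all genes were, and SEL1L, SYVN1, HERPUD1, SELENOS, SELENOK, CRELD2, SRPRA, SEC61A1 and SEC11C were lower, where 6.54% of all genes were. Without vector replicate 1, 7 members were called, all of them lower, namely HERPUD1, CRELD2, SEC61A1, SEC61B, SSR4, SPCS1 and SEC11C, but calls rose over all genes too, to 2.65% higher and 3.68% lower. No member was called without vector replicate 2, where 0.0466% of all genes were higher and 0.0622% lower, or without vector replicate 3, where 0.0413% were higher and 0.0671% lower.

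With NLS Mut against vector, 0 members were called higher and 1 lower by edgeR's quasi-likelihood test, beside 0.295% and 0.499% of all tested genes. At an unadjusted p under 0.05, SSR1 was higher and 6 members lower, beside 6.13% and 6.03% of all tested genes. DESeq2 called 0 higher and 3 lower (OS9, HERPUD1 and CRELD2), beside 2.1% and 1.87% of the genes it gave an adjusted p. The median log2 fold change was 0.0010, with 20 of 41 below 0, beside a median of −0.0017 and 50.3% below 0 over all tested genes. AUP1, FAF2 and SSR1 were higher in every NLS Mut library than in any vector library, where 9.28% of all genes were, and EDEM1, OS9, SEL1L, SYVN1, DERL3, HERPUD1 and CRELD2 were lower, where 8.82% of all genes were. Without vector replicate 1, 7 members were called, SSR1 higher and OS9, DERL3, HERPUD1, CRELD2, SEC61B and SSR4 lower, while over all genes 2.38% were called higher and 2.66% lower. No member was called without vector replicate 2, where 0.0933% of all genes were higher and 0.166% lower, or without vector replicate 3, where 0.0568% were higher and 0.16% lower. Both comparisons used the same vector libraries and are not independent of each other.

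Between WT and NLS Mut, which differ in the nuclear localization signal, 0 members were called in either direction by edgeR's quasi-likelihood test, beside 0.3% of all genes higher and 0.204% lower. At an unadjusted p under 0.05, 0 were higher and 4 lower with WT, beside 5.55% and 6% of all tested genes. DESeq2 called 0 higher and 1 lower, SEC62, beside 1.42% and 1.2% of the genes it gave an adjusted p. The median log2 fold change was −0.03, with 29 of 41 below 0, beside a median of −0.0054 and 51.15% below 0 over all tested genes. HSPA5 itself was 0.19 ± 0.05 higher on the log2 scale with WT, adjusted p = 0.079 by edgeR's quasi-likelihood test, and this difference passed the threshold in 9 of 17 alternatives, where its adjusted p ranged from 0.0025 to 0.37. Its part in the differences of the members was not tested. SEC11A alone was higher without overlap, where 8.25% of all genes were, and AUP1, SEC62 and SPCS1 were lower, where 9.42% of all genes were.

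**Figure D1:**
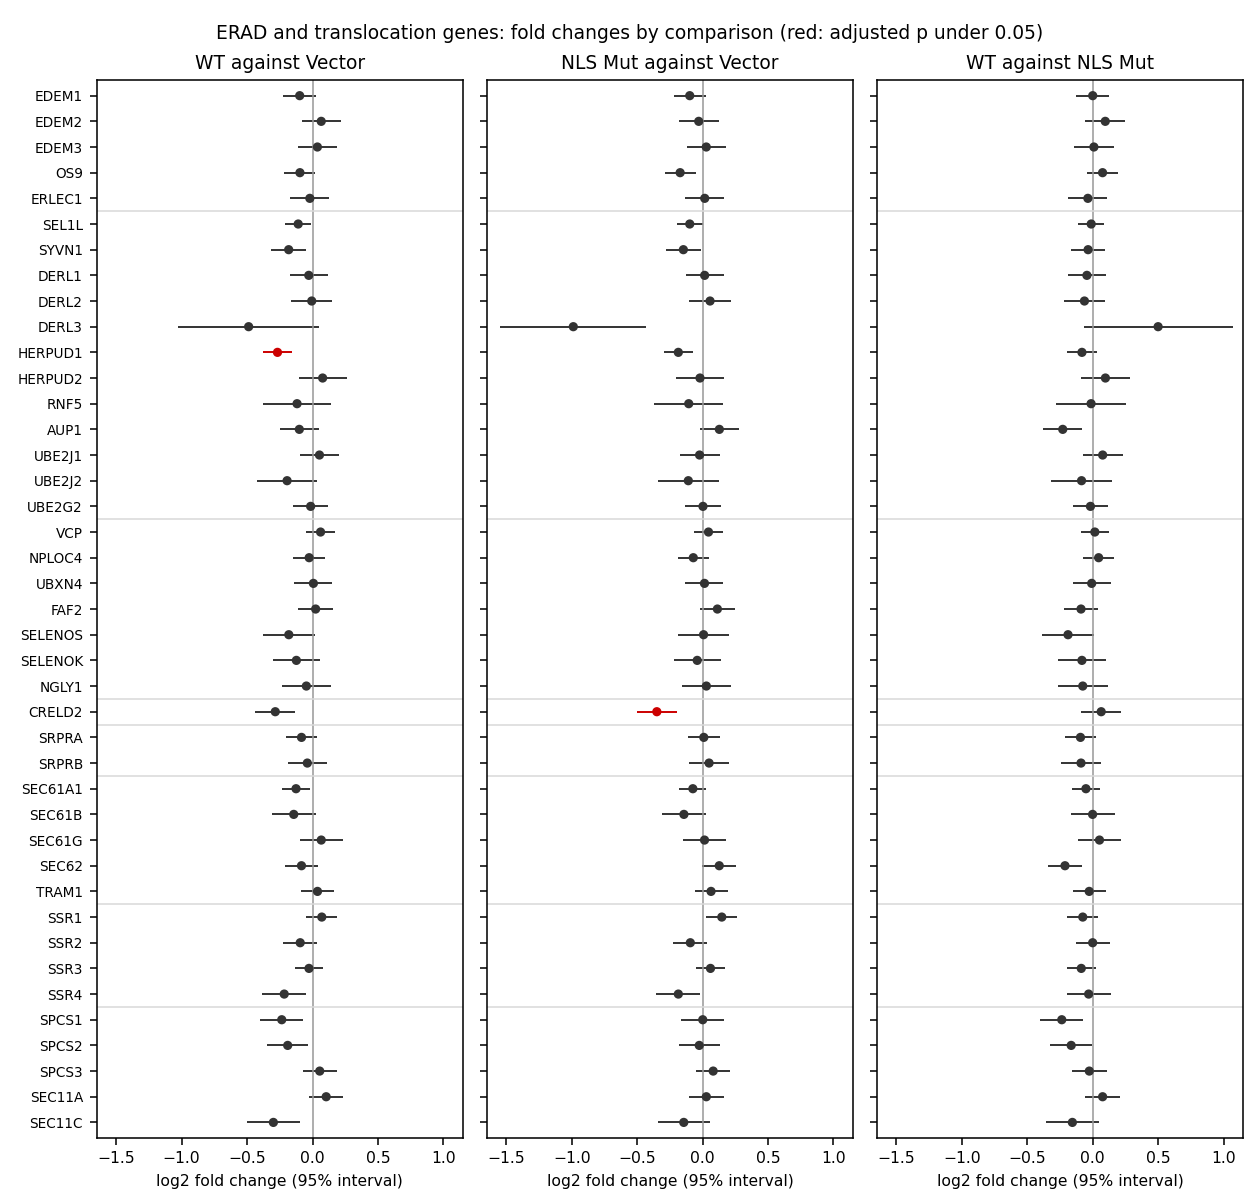
Log2 fold change with its 95% interval (x axis) of each of the 41 genes (y axis, in the order of their roles, separated by grey lines) in the 3 comparisons, with red for an adjusted p under 0.05. HERPUD1 at −0.27 in the comparison of WT with Vector and CRELD2 at −0.35 in that of NLS Mut with Vector are the red points, and DERL3 has the widest intervals.

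Substrate recognition begins with the EDEM proteins, which trim mannose from misfolded glycoproteins, and the lectins OS9 and ERLEC1, which read the trimmed glycan. None of these 5 genes was called in any comparison by edgeR's quasi-likelihood test, and their log2 fold changes ranged from −0.10 to 0.07 with WT and from −0.17 to 0.03 with NLS Mut. OS9 (chr12:57693955-57721557, plus strand) differed most. It had 234.2, 263.1 and 258.1 CPM with vector, 240.1, 240.5 and 226.3 CPM with WT and 226.9, 225.1 and 218.7 CPM with NLS Mut. Every NLS Mut library was below every vector library, and the WT libraries overlapped with vector. Its log2 fold change was −0.17 ± 0.06 (SE) with NLS Mut, adjusted p = 0.18 by edgeR's quasi-likelihood test, and −0.10 with WT, adjusted p = 0.55. With NLS Mut it passed the threshold in 2 of 17 alternatives, with DESeq2 (adjusted p = 0.049) and without vector replicate 1 (0.0061), in a range of adjusted p from 0.0061 to 0.55. The value with WT was −0.05 with GC content and length corrected for and −0.06 without vector replicate 2. The unstranded count of OS9 was 67.4% of its counts on both strands together, since reads on overlapping genes are left out. The counts by strand can hold reads of an overlapping gene.

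The membrane ligase group holds SYVN1, the ubiquitin ligase HRD1, its partner SEL1L, the derlins that form part of the channel, the HERPUD proteins, the ligase RNF5, AUP1 and the ubiquitin-conjugating enzymes UBE2J1, UBE2J2 and UBE2G2. Of these 12 genes, 10 had a fold change below 0 with WT and 8 with NLS Mut, with 1 called lower with WT and 0 with NLS Mut by edgeR's quasi-likelihood test. Their summed level was 1857 to 1899 CPM with vector, 1699 to 1749 CPM with WT and 1746 to 1791 CPM with NLS Mut, sums in which SEL1L and HERPUD1 weigh most.

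HERPUD1 (ENSG00000051108.15, chr16:56932048-56944863, plus strand) is an ER membrane protein with a ubiquitin-like domain that organises the ligase complex, and its ERSE-II and C/EBP-ATF windows are printed above. It had 409.0, 442.7 and 457.7 CPM with vector, 361.6, 365.4 and 360.9 CPM with WT and 364.4, 397.1 and 390.0 CPM with NLS Mut. All 6 libraries with GRP78 were below the lowest vector library, and the WT libraries lay close together. The log2 fold change was −0.27 ± 0.05 (SE) with WT, adjusted p = 0.016 by edgeR's quasi-likelihood test, and −0.19 ± 0.05 with NLS Mut, adjusted p = 0.11. The difference between the GRP78 forms, −0.08 on the log2 scale with a 95% interval from −0.19 to 0.03, did not pass the test (adjusted p = 0.61 by edgeR's quasi-likelihood test), so it is not shown that the forms differ. The call with WT was lost when only the 2 groups were fitted (adjusted p = 0.078) and without vector replicate 2 (0.13), vector replicate 3 (0.15), WT replicate 1 (0.10) or WT replicate 3 (0.11).

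SEL1L (chr14:81471549-81533861, minus strand), the adaptor that stabilises SYVN1, had 781.1, 741.2 and 737.4 CPM with vector, 727.8, 674.0 and 692.9 CPM with WT and 698.1, 714.8 and 697.9 CPM with NLS Mut. Vector was highest in all 3 libraries. For SEL1L the log2 fold change was −0.11 ± 0.05 with WT, adjusted p = 0.35, and −0.10 ± 0.05 with NLS Mut, adjusted p = 0.41, by edgeR's quasi-likelihood test. With each library corrected for GC content and length, SEL1L passed the threshold in both, at −0.18 (adjusted p = 0.0093) and −0.17 (adjusted p = 0.013). Over the 17 alternatives its adjusted p ranged from 0.0053 to 0.68 with WT and from 0.0086 to 0.70 with NLS Mut.

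SYVN1 (chr11:65121780-65134533, minus strand) had 141.5, 142.0 and 144.5 CPM with vector, 127.2, 134.6 and 115.3 CPM with WT and 132.6, 125.6 and 128.4 CPM with NLS Mut. The groups with GRP78 did not overlap with vector. The log2 fold change was −0.18 ± 0.06 with WT, adjusted p = 0.23, and −0.15 ± 0.06 with NLS Mut, adjusted p = 0.34, by edgeR's quasi-likelihood test, and SYVN1 was called in none of the 17 alternatives. With GC content and length corrected for, the values were −0.12 (adjusted p = 0.36) and −0.07 (adjusted p = 0.68), in a range of adjusted p over the alternatives from 0.066 to 0.64 and from 0.15 to 0.68.

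DERL3 (chr22:23834503-23839128, minus strand), 1 of the 3 derlins, was the least abundant member, with 101, 166 and 187 reads with vector, 107, 146 and 42 reads with WT and 57, 79 and 49 reads with NLS Mut. These are 4.67, 6.01 and 6.92 CPM, 4.84, 5.62 and 2.02 CPM, and 2.99, 3.10 and 2.78 CPM. The NLS Mut libraries were all below vector, and the WT libraries spread over the range of the other groups. The log2 fold change with NLS Mut was −0.99 ± 0.27, adjusted p = 0.086 by edgeR's quasi-likelihood test, and passed the threshold in 5 of 17 alternatives. Of its exonic bases 77% are shared with SMARCB1 on the opposite strand, and its unstranded count was 26.9% of its counts on both strands together. Those counts by strand can hold reads of SMARCB1, so the level and change of DERL3 are uncertain.

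The remaining 8 genes of the group were not called by edgeR's quasi-likelihood test in any comparison. AUP1, which recruits UBE2G2 to lipid droplets and the ligase, had 89.6, 97.2 and 99.0 CPM with vector, 85.9, 97.6 and 82.9 CPM with WT and 107.5, 105.8 and 99.0 CPM with NLS Mut. Its mean was highest with NLS Mut, but the lowest NLS Mut library, at 98.992 CPM, nearly touched the highest vector library, at 98.982 CPM. The log2 difference of WT from NLS Mut was −0.23 ± 0.07, adjusted p = 0.16 by edgeR's quasi-likelihood test. AUP1 shares 18.3% of its exonic bases with HTRA2 on the opposite strand.

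**Figure D2:**
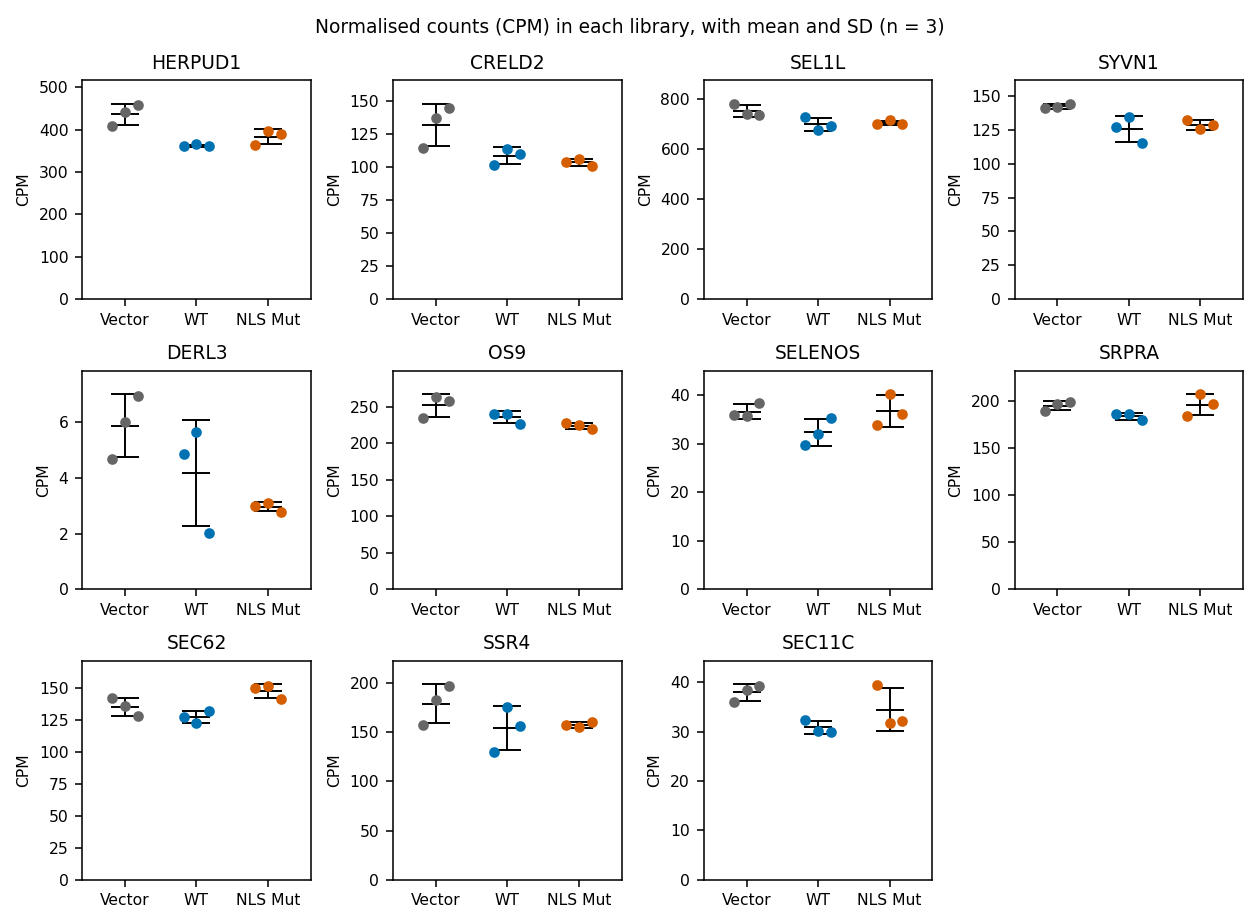
CPM (y axis, from 0) in each library (points) of 11 genes in the Vector, WT and NLS Mut groups, with the mean and SD of 3 libraries in black. All 6 libraries with GRP78 lie below the lowest Vector library for HERPUD1, CRELD2, SEL1L and SYVN1, and SEC62 is higher in every NLS Mut library than in any WT library.

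Extraction from the membrane is done by VCP with its cofactor NPLOC4, and UBXN4, FAF2 and the selenoproteins SELENOS and SELENOK are membrane proteins that bring VCP to the site. NGLY1 removes the glycan of the extracted protein. None of these 7 genes was called in any comparison by edgeR's quasi-likelihood test, and 0 passed an unadjusted p of 0.05. VCP, the most abundant of them per length, had a log2 fold change of 0.06 (95% interval −0.05 to 0.17) with WT and 0.04 (−0.06 to 0.15) with NLS Mut. SELENOS had 35.8, 35.6 and 38.3 CPM with vector, 29.7, 31.9 and 35.3 CPM with WT and 33.8, 40.2 and 36.1 CPM with NLS Mut. It was lower in every WT library than in any vector library, with a log2 fold change of −0.18 ± 0.10 (adjusted p = 0.48 by edgeR's quasi-likelihood test), and overlapped with vector in NLS Mut.

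CRELD2 (ENSG00000184164.15, chr22:49918167-49927540, plus strand), whose ERSE window is printed above, is a luminal and secreted protein with EGF-like domains. It had 114.4, 137.2 and 145.0 CPM with vector, 101.3, 114.1 and 110.3 CPM with WT and 104.1, 106.2 and 101.1 CPM with NLS Mut. Every library with GRP78 was below the lowest vector library, vector replicate 1, which lay near the highest WT library. The log2 fold change was −0.35 ± 0.07 (SE) with NLS Mut, adjusted p = 0.018, and −0.28 ± 0.07 with WT, adjusted p = 0.074, by edgeR's quasi-likelihood test. With WT it passed the threshold in 6 of 17 alternatives, DESeq2 among them (adjusted p = 0.030), with an adjusted p from 1.7e-04 to 0.50 over the alternatives. The difference between the forms was 0.07 on the log2 scale, with a 95% interval from −0.09 to 0.22 and an adjusted p of 0.81 by edgeR's quasi-likelihood test. The call with NLS Mut was lost without vector replicate 2 (adjusted p = 0.11), vector replicate 3 (0.15) or NLS Mut replicate 1 (0.096), 2 (0.091) or 3 (0.13). Corrected for GC content and length, its log2 fold change with NLS Mut was smaller, −0.24 (adjusted p = 0.013).

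**Figure D3:**
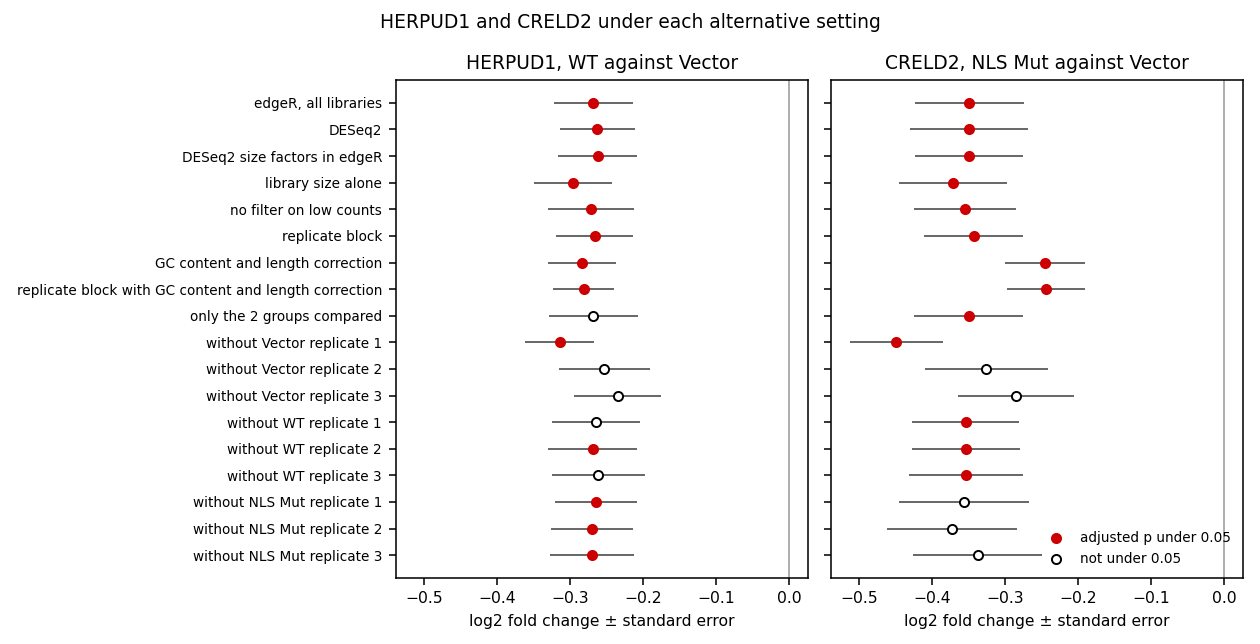
Log2 fold change ± standard error (x axis) of HERPUD1 with WT against Vector and of CRELD2 with NLS Mut against Vector under edgeR with all libraries and 17 alternatives (y axis), filled red where the adjusted p was under 0.05. Each gene is below 0 in every setting, from −0.31 to −0.23 for HERPUD1 and from −0.45 to −0.24 for CRELD2, and each passes the threshold in 12 of 17 alternatives.

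The receptor of the signal recognition particle has a GTPase subunit, SRPRA, and its membrane anchor, SRPRB, and neither was called by edgeR's quasi-likelihood test. SRPRA had 189.3, 196.4 and 198.3 CPM with vector, 185.8, 185.8 and 179.4 CPM with WT and 184.2, 206.7 and 196.7 CPM with NLS Mut. It was lower in every WT library than in any vector library, by −0.08 ± 0.06 on the log2 scale (adjusted p = 0.63 by edgeR's quasi-likelihood test).

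The translocon consists of the channel subunits SEC61A1, SEC61B and SEC61G, with SEC62 for short secretory proteins and TRAM1 beside it. None of the 5 was called by edgeR's quasi-likelihood test. SEC61A1, which forms the pore, had 569.4, 617.0 and 576.2 CPM with vector, 551.1, 523.6 and 540.6 CPM with WT and 544.0, 583.1 and 546.7 CPM with NLS Mut. Its WT libraries were below vector, by −0.13 ± 0.05 on the log2 scale (adjusted p = 0.31 by edgeR's quasi-likelihood test).

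SEC62 (chr3:169966635-169998373, plus strand), which also serves as an ER-phagy receptor and holds the UPRE core printed above, had 142.0, 135.7 and 127.7 CPM with vector, 127.4, 122.8 and 132.1 CPM with WT and 150.1, 151.0 and 141.4 CPM with NLS Mut. The GRP78 forms did not overlap. The vector mean, 135.14 CPM, lay between those of WT, 127.45 CPM, and NLS Mut, 147.51 CPM, but the vector libraries overlapped with both forms. WT was lower than NLS Mut by −0.21 ± 0.06 on the log2 scale, adjusted p = 0.13 by edgeR's quasi-likelihood test. The difference passed the threshold in 5 of 17 alternatives, with DESeq2 (0.042), with the correction for GC content and length without (0.031) and with (0.026) the replicate block, with only the 2 groups compared (0.047) and without vector replicate 1 (0.035), in a range of adjusted p from 0.026 to 0.47.

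The TRAP complex (SSR1 to SSR4) assists insertion of nascent chains beside the channel, and none of its 4 genes was called by edgeR's quasi-likelihood test. SSR4 (chrX:153793516-153798505, plus strand) had 157.6, 183.0 and 196.9 CPM with vector, 130.6, 175.6 and 156.7 CPM with WT and 157.1, 155.1 and 160.9 CPM with NLS Mut. The groups overlapped because vector replicate 1 was as low as the libraries with GRP78. For SSR4 the log2 fold change was −0.22 ± 0.08 with WT, adjusted p = 0.27, and −0.19 ± 0.08 with NLS Mut, adjusted p = 0.35, by edgeR's quasi-likelihood test. Without vector replicate 1 the values were −0.30 (adjusted p = 0.0067) and −0.28 (adjusted p = 0.017). With GC content and length corrected for they were −0.12 (adjusted p = 0.43) and −0.08 (adjusted p = 0.67), and without vector replicate 3 they were −0.15 and −0.12 (adjusted p = 0.79 in each). The value with WT was −0.11 (adjusted p = 0.75) without WT replicate 1. SSR1 had a log2 fold change of 0.15 ± 0.06 for NLS Mut against vector, which did not pass the test (adjusted p = 0.27 by edgeR's quasi-likelihood test). The unstranded count of SSR2 was 54.9% of its counts on both strands together, which can hold reads of an overlapping gene. The pseudogene SSR4P1 held at most 83 reads in a library.

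Signal peptidase holds a catalytic subunit, SEC11A or SEC11C, and the subunits SPCS1, SPCS2 and SPCS3, and none of the 5 genes was called by edgeR's quasi-likelihood test. SEC11C had 36.1, 38.6 and 39.3 CPM with vector, 32.5, 30.2 and 29.985 CPM with WT and 39.4, 31.7 and 32.2 CPM with NLS Mut. It was lower in every WT library than in vector, by −0.30 ± 0.10 on the log2 scale (adjusted p = 0.18 by edgeR's quasi-likelihood test). SEC11A, the paralog, had 90.4, 90.2 and 91.0 CPM with vector, 95.5, 98.3 and 98.1 CPM with WT and 94.6, 91.7 and 90.7 CPM with NLS Mut. Its WT libraries were above those of both other groups, by 0.10 ± 0.06 against vector (adjusted p = 0.56 by edgeR's quasi-likelihood test). SPCS1 had 71.9, 84.0 and 86.4 CPM with vector, 66.8, 74.6 and 64.6 CPM with WT and 75.5, 83.8 and 83.3 CPM with NLS Mut, and 50.7% of its exonic bases are shared with NEK4 on the opposite strand.

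Compared per kilobase of exon, levels in the vector libraries spanned from 125 CPM per kb (SEC61A1) to 1.54 CPM per kb (DERL3). HERPUD1 followed SEC61A1, at 84.7 ± 4.84 CPM per kb (SD, n = 3), and then SEL1L at 78.8 ± 2.53 and SSR3 at 75.9 ± 2.77 CPM per kb, neighbours that lie within each other's spread. SEC61B at 67.9 ± 9.65 and SEC61G at 66.6 ± 6.16 CPM per kb likewise did not differ beyond their spread. NGLY1 at 4.59 and UBE2J2 at 7.58 CPM per kb stood just above DERL3. Reads on overlapping genes are left out of these levels, so the places of DERL3, SSR2 and OS9 in the order are uncertain. The libraries of a group differed little for most members, with a median coefficient of variation of 4.87% in vector, 4.73% in WT and 3.59% in NLS Mut.

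**Figure D4:**
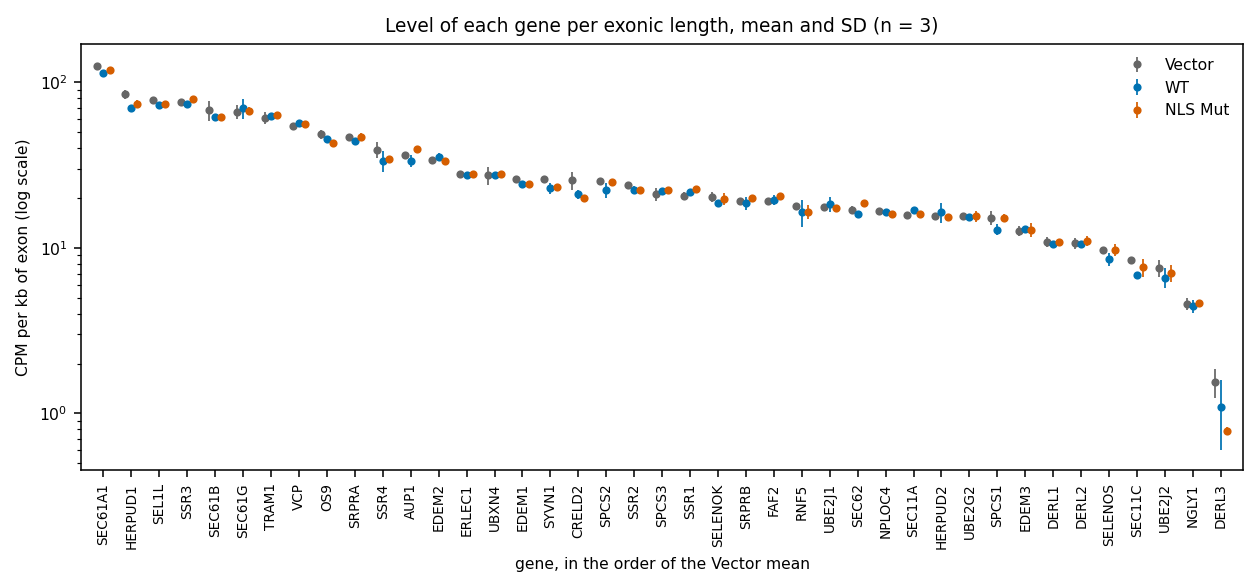
CPM per kilobase of exon (y axis, log scale) of the 41 genes (x axis, in the order of the Vector mean), as mean and SD of 3 libraries in Vector, WT and NLS Mut. The order runs from SEC61A1 at 125 to DERL3 at 1.54 CPM per kb in Vector, and the groups differ little beside the differences between genes. Reads on overlapping genes are left out, which makes the place of DERL3 uncertain.

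Summed over the 41 genes, the level was 6292 ± 20.9 CPM (SD, n = 3) with vector, 5980 ± 44.7 CPM with WT and 6129 ± 85.0 CPM with NLS Mut. The sum was lowest in the WT libraries, 5934 to 6024 CPM, and highest with vector, 6270 to 6312 CPM, a description in which the most abundant members weigh most. In RNA from bulk cultures, fewer cells that express a gene and less of its RNA per cell cannot be told apart.

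The fold changes moved with the GC content of the genes. Across the 41 members, Spearman's rho between GC content and the log2 fold change was −0.45 with WT and −0.58 with NLS Mut against vector, and 0.16 between the forms, genes that share libraries and are not independent replicates. With GC content and length corrected for, the values were −0.08, −0.05 and 0.09. The correction takes out each library's trend with GC content, so values near 0 largely follow from it and are not a separate result. Among the members, the log2 deviation from the mean library changed for each 10 points of GC content by −0.02, 0.12 and 0.14 in the vector libraries, by −0.05, 0.10 and −0.11 with WT and by −0.07, −0.07 and −0.04 with NLS Mut. CRELD2, at 59.7% GC, SSR4 at 60.3% and DERL3 at 60.6% are among the richest in GC, HERPUD1 at 48.1% lies in the middle, and SEC62 at 38.4% is the poorest. With the correction, edgeR's quasi-likelihood test called HERPUD1 and SEL1L lower with WT, HERPUD1, SEL1L and CRELD2 lower and AUP1 higher with NLS Mut, and AUP1 and SEC62 lower with WT than with NLS Mut. Over all genes this fit called 0.633% higher and 0.386% lower with WT, 0.922% higher and 0.482% lower with NLS Mut, and 1.14% higher and 1.35% lower between the forms. HERPUD1 was at −0.28 with WT (adjusted p = 5.9e-04) and −0.20 with NLS Mut (adjusted p = 0.020) in that fit.

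**Figure D5:**
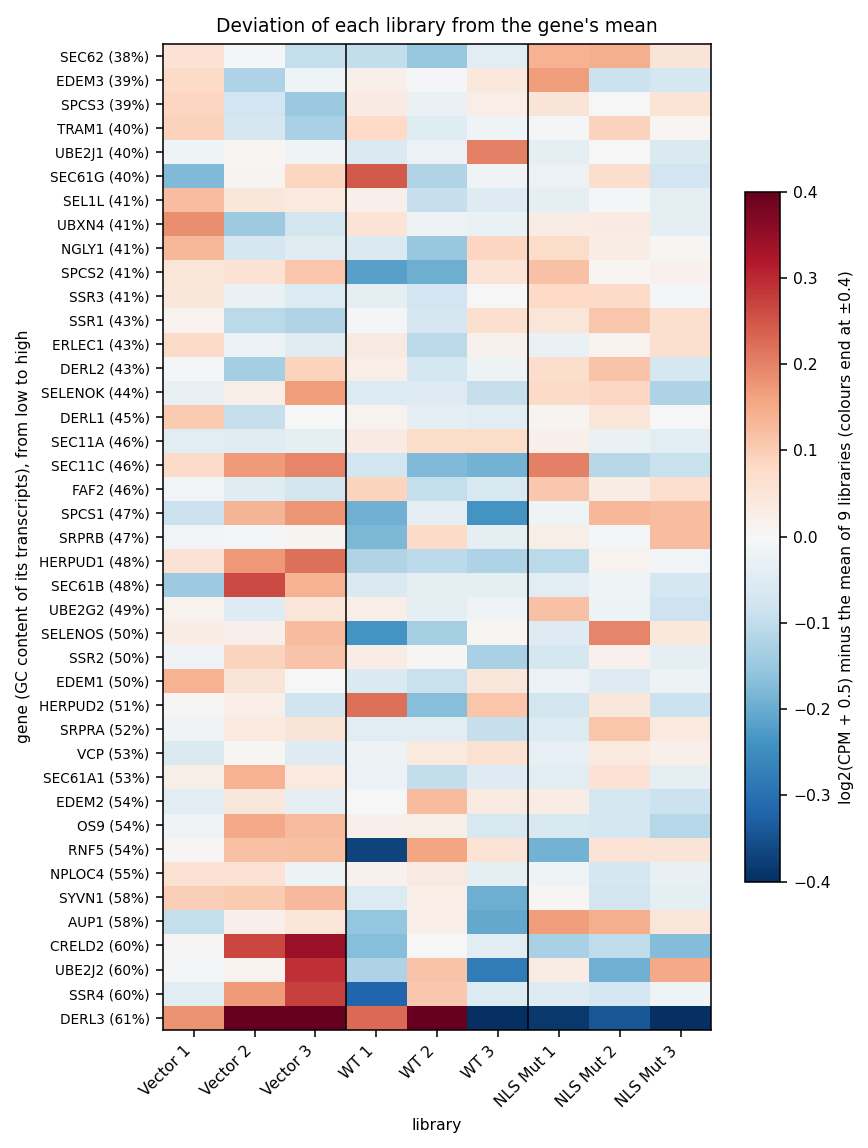
Log2(CPM + 0.5) of each gene in each library minus the gene's mean over 9 libraries (colour, ending at ±0.4), with genes from low (SEC62, 38.4%) to high (DERL3, 60.6%) GC content on the y axis and libraries on the x axis. The GC-rich genes at the bottom are above their mean in Vector 2 and Vector 3 more than in Vector 1.

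Other genes of these pathways, a list of 59 that holds further ERAD factors, the ER membrane complex and other insertion factors and the oligosaccharyltransferase, were mostly measured, with 58 tested. In each of the 3 comparisons edgeR's quasi-likelihood test called 0 of them. At an unadjusted p under 0.05, WT had 4 higher and 5 lower, NLS Mut had 2 higher and 3 lower, and WT against NLS Mut had 0 higher and 3 lower. In both directions together these are 15.5%, 8.62% and 5.17% of the 58, beside 11.7%, 12.2% and 11.6% of all tested genes. DESeq2 called 0, then 1 (TMUB1, a ubiquitin-like membrane protein of ERAD, lower with NLS Mut), then 1 (TMEM147, a translocon-associated protein, lower with WT). The median log2 fold change was 0.02, 0.02 and −0.01.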

How the data were processed

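The data are 9 RNA-Seq libraries of H1975 cells, 3 per group. For each library the authors deposited gene-level counts of reads, not normalised, and the submitters' processing notes name STAR 2.7.9a, GRCh38.p14 and DESeq2 1.36.0. The annotation release and the test are not given in the sources used here. Of the deposited columns, the unstranded counts entered the tests, because 50.6% to 51.9% of stranded counts lay on the forward strand. The 4 summary lines, 27.6% to 30.7% of a library's reads, name no gene and were left out. Symbols matched 61399 genes, and GENCODE release 29 (GRCh38) gave positions, exonic length and GC content. All coordinates are in GRCh38, those of genes from GENCODE and those of promoter windows from RefSeq.

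Counts of all libraries were filtered with filterByExpr and scaled by TMM, with factors between 0.989 and 1.02. A single quasi-likelihood model was then fitted in edgeR 4.0.16 (R 4.3.3), with Benjamini-Hochberg adjustment over 18653 genes and a threshold of 0.05. A standard error is the size of the log2 fold change over the square root of its F statistic. The median biological coefficient of variation was 11.2%, and an exact permutation test of 3 against 3 allows no p below 0.1, so only the model was used. The model was tested on simulated data. Alternatives were DESeq2 1.42.0, its size factors, library size alone, no filter, a block for the replicate number, a fit of only the 2 groups compared, a correction for GC content and length (loess, span 0.3), both together, and each library left out. The members and lists were chosen with earlier results of these data known. Values in every library are given for members called in any comparison, SEL1L, SYVN1 and HSPA5, and the member with the largest absolute log2 fold change of each role. AUP1, SEC61A1, SEC11A, SPCS1, SSR1, TMUB1 and TMEM147 were named after their values were seen.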

Additional observations from a re-analysis of the deposited data

How the results depend on the processing

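The number of members called by edgeR's quasi-likelihood test, 1, 1 and 0 for WT against vector, NLS Mut against vector and WT against NLS Mut, moved with the setting. It was 2, 3 and 1 with DESeq2. With WT it was 2 with library size alone, and it was 2 in both comparisons with vector without a filter. With only the 2 groups compared it was 0, 2 and 1, and with the correction for GC content and length 2, 4 and 2. The replicate block gave 2 with WT, 2 with NLS Mut and, together with the correction, 3, 4 and 3. Deviations of same-numbered libraries correlated at −0.024 to 0.059, but with 3 libraries in a group such weak values cannot exclude pairing by replicate number. With the block alone, calls over all genes rose from 104 to 232 with WT against vector and from 148 to 230 with NLS Mut against vector. The block is given only as an alternative. With 1 library left out the count ranged from 0 to 7, from 0 to 7 and from 0 to 1, with the highest values without vector replicate 1. The median log2 fold change of the members, −0.08, 0.0010 and −0.03, was −0.112 and −0.0218 in the comparisons with vector with library size alone, −0.0623 and −0.0231 with the correction, −0.0638 and −0.0256 with the block and the correction, and with 1 library left out −0.0862 to −0.0465, −0.0347 to −0.0031 and −0.0372 to −0.0119. The cause of these moves was not tested. Reversals concerned small fold changes only. With library size alone, SELENOS was at −0.0162 and SRPRA at −0.0142 with NLS Mut against vector. With 1 library left out, SELENOS ranged from −0.0717 to 0.0577 and SRPRA from −0.0385 to 0.0461 in that comparison, and between the forms SEL1L ranged from −0.0361 to 0.0224, SSR4 from −0.127 to 0.0820 and SYVN1 from −0.0790 to 0.0306. Of the values of the named genes under the 17 alternatives, 550 kept their direction and side of the threshold, 39 newly passed it, 10 no longer did and 13 reversed. At 42 to 187 reads, DERL3 is limited by its depth.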

Other observations

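The letters of ERSE were also found in the promoters of 14 tested genes outside the set, chosen after values were seen, among them the ER chaperones CALR (calreticulin), HSP90B1 (GRP94) and CANX (calnexin) and the UPR transcription factor XBP1. With NLS Mut against vector, 13 of the 14 had a log2 fold change below 0, with a median of −0.18, and CALR and HSP90B1 were called lower by edgeR's quasi-likelihood test. With WT against vector, 10 were below 0, with a median of −0.03, and 0 were called. Over all tested genes 50.5% were below 0 there, with a median of −0.0023, and 0.343% were called lower. Between the forms 1 was below 0, the median was 0.06 and HSP90B1 was called higher with WT. Over all tested genes 51.15% were below 0 between the forms, with a median of −0.0054, and 0.3% were called higher. Of the 14 tested genes outside the set with the letters of ERSE-II, 10 were below 0 with WT against vector, 8 with NLS Mut against vector and 8 between the forms, with medians of −0.07, −0.12 and −0.01. Among them HYOU1, an ER chaperone of the HSP70 family, was called lower in both comparisons with vector, and SDF2L1, an ER protein induced by stress, was called lower with WT. The values over all tested genes given for ERSE are the background for ERSE-II too. ALG12, 1 of the 14 genes with ERSE, shares 168 exonic bases with CRELD2 on the opposite strand, and both may hold the same site. The comparisons share their libraries, and no test of these groups was made. The part of GC content in these values was not tested.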
